A study of Mus musculus with 12 samples.

Results

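Ptgds, Slc6a20a, Igf2, Slc22a6, Slc47a1, Gjb2, Gjb6, Foxc1, Tbx18 and Tmem72 were listed together as genes of the meninges and of the coverings of nerve roots. They were chosen by name, with expression values of these same mice already known, and all 10 were present by symbol among the 49315 genes of the deposited table. Because the choice drew on the comparison of genotypes, the genotype difference of these 10 genes is given as a description. Test calls for it are counted in the closing section to show how they depend on the processing, and they are no support for it. The behaviour of the 10 genes from mouse to mouse within a genotype, their relation to labelled sex, and the genotype difference of other genes were tested.

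Gene expression was measured by bulk RNA sequencing of dorsal root ganglia (DRG), the clusters of sensory neurons on the dorsal roots of spinal nerves. Each library came from 1 mouse aged 10 months and pooled about 8 ganglia of that animal, and there were 6 mice of each genotype, with the sexes balanced by label at 3 and 3. All 12 mice carried Postn-Cre(+) and Nf2 flox/flox, so that Nf2, which encodes the tumor suppressor Merlin, was deleted in cells with a history of Periostin promoter activity, which are Schwann cells and their precursors. Mice with these alleles alone are called Nf2, and mice that also carried Fak1 flox/flox, which deletes focal adhesion kinase (Fak, annotated as Ptk2) in the same cells, are called DKO, for double knockout. Cells that never used the Periostin promoter, keep the targeted genes, and mice with intact Nf2 were not analysed here. The comparison of DKO with Nf2 addressed what the loss of Fak changes in ganglia that already lack Nf2 in the Schwann cell lineage.

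Between 21129191 and 41250329 reads were assigned to genes in a library, and mitochondrial genes made up 1.99% to 4.45% of the Nf2 libraries and 2.15% to 5.60% of the DKO libraries, with the highest shares in Nf2 mouse 649 and DKO mouse 887. In counts per 1000000 assigned reads (CPM), the unit of all levels unless stated, Ptk2 averaged 70.0 ± 3.60 in Nf2 DRG and 64.0 ± 10.4 in DKO DRG (mean ± SD, n = 6), and the Nf2 transcript averaged 128 ± 12.4 and 118 ± 11.2 CPM. Neither passed the edgeR test, with adjusted p-values of 0.529 and 0.435, so that whole-ganglion counts did not separate the genotypes by the targeted genes. Sensory neuron genes (Tubb3, Prph and Scn10a) summed with 4 others to 3744 to 5592 CPM, and the myelin genes of Schwann cells Mbp and Pmp22 averaged 3256 and 1809 CPM in Nf2 and 3013 and 1742 CPM in DKO mice, so the defining markers of the labelled tissue were present in every library. Nf2 mouse 702, labelled male, had 496 CPM of Xist and 0.525 CPM of Ddx3y, which are levels seen in the female-labelled libraries.

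The meninges are the layered membranes around brain and spinal cord. The inner layers, arachnoid and pia, together called leptomeninges, extend along each nerve root to the ganglion, where they pass into the perineurium, the cellular sheath of the peripheral nerve. Their cells form a barrier between cerebrospinal fluid and the surrounding tissue, joined by junctions and equipped with transporters that move amino acids, organic anions and organic cations across it. They also secrete proteins into the fluid, among them the lipocalin-type prostaglandin D synthase encoded by Ptgds. Several of these genes are also used elsewhere, for instance the organic anion transporter Slc22a6 in the kidney.

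The promoters of 3 of the genes are shown because these genes carry the patterns described below, namely Ptgds for the level, Slc6a20a for the closest proportion to Ptgds, and Tmem72 for a genotype difference without that proportion. The sequences are RefSeq windows on GRCm38.p6, from 250 bases before to 50 bases after the annotated start, written 5′ to 3′ on the minus strand, the coding strand of all 3 genes. They cover chr2:25469700-25469999 for Ptgds, chr9:123678783-123679082 for Slc6a20a and chr6:116716709-116717008 for Tmem72. Capitals mark the T-box half-site, GGTGTG or its reverse complement CACACC.
Ptgds: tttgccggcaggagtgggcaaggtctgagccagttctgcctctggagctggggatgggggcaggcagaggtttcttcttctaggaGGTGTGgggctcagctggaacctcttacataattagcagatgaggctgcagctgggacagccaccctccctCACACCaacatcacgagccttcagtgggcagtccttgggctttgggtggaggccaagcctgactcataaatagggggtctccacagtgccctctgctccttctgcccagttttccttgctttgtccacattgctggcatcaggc
Slc6a20a: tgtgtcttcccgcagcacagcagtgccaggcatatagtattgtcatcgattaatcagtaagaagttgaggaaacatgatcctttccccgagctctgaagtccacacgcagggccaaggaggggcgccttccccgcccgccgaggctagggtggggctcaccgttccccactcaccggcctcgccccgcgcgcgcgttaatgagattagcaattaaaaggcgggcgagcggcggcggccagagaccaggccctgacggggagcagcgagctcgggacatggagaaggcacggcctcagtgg
Tmem72: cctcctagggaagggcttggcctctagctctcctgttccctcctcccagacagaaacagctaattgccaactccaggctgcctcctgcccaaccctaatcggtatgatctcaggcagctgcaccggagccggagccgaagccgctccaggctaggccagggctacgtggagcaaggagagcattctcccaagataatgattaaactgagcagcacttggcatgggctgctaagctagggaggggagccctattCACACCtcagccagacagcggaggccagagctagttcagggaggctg

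Promoter windows were found for 9 of the 10 genes, all but Slc47a1, with 12 windows in total. Motifs were searched on both strands because the set holds a forkhead factor (Foxc1) and a T-box factor (Tbx18). The forkhead core TGTTTA (reverse complement TAAACA) did not occur in any of the 12 windows, and it occurs in 13.44% of all 32851 promoter windows of the same length. The T-box half-site occurs in 19.05% of all windows and was found in 2 of the 9 genes. In Ptgds it lay at -165 and -94 relative to the start, and in Tmem72 at 3. These are matches of letters in a short window, and the motifs do not overlap each other.

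All 10 genes had a higher fitted level in DKO than in Nf2 DRG, with log2 fold changes from 0.50 for Foxc1 to 1.93 for Ptgds and a median of 1.32, where the median of all 18295 tested genes was 0.005 and 51% of them lay above 0. Of the 10, 8 lay above a log2 fold change of 1, and 0.951% of all tested genes did. All 10 passed the count filter. Since these genes were listed with this contrast known, the counts describe the list and nothing is read from them. In a bulk sample a larger number of cells of a type and more RNA per cell of that type cannot be told apart.

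Ptgds (ENSMUSG00000015090, GRCm38 chromosome 2, 25466709 to 25470046, minus strand) encodes the prostaglandin D synthase. From low to high, the Nf2 mice stood at 28.5 CPM (mouse 649), 124 (1049), 125 (918), 135 (702), 143 (884) and 208 (1048). The DKO mice stood at 88.4 CPM (887), 283 (914), 349 (917), 426 (915), 498 (885) and 1308 (886). Mouse 887 was the only DKO mouse within the Nf2 range, and the other 5 lay above all Nf2 mice. The means were 127 ± 57.7 CPM in Nf2 and 492 ± 424 CPM in DKO mice (SD, n = 6), a log2 fold change of 1.93 ± 0.53 (SE). The SD in DKO was nearly as large as the mean, since mouse 886 alone had 14.8 times the level of mouse 887.

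**Figure D1:**
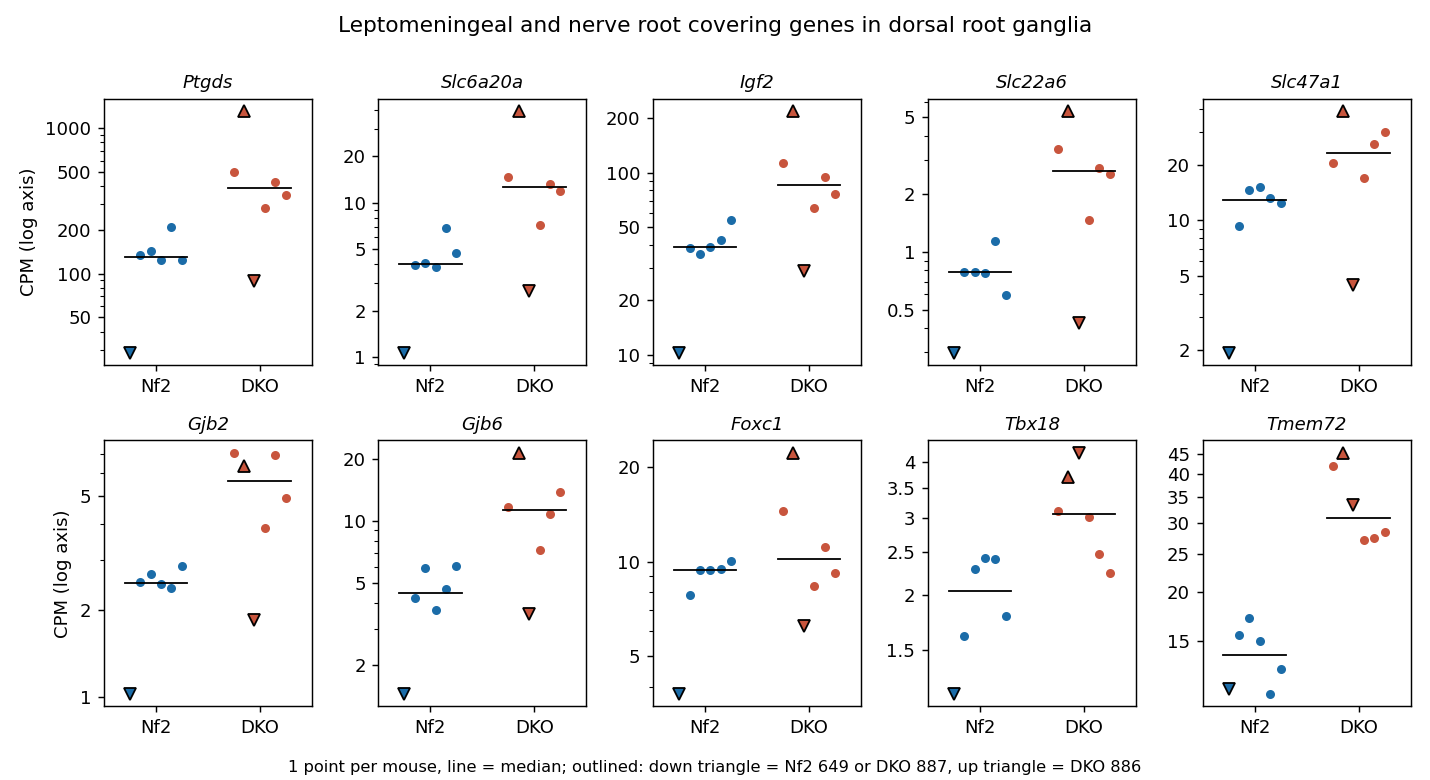
Level of each of the 10 genes in CPM on a log axis, with 1 point per mouse (Nf2 in blue, DKO in red, n = 6 each) and a line at the median; outlined symbols mark Nf2 mouse 649 and DKO mouse 887 (down triangles) and DKO mouse 886 (up triangle). In 8 of the 10 genes mouse 887 sits below the other DKO mice, for example at 88.4 CPM of Ptgds, whereas for Tmem72 all DKO mice lie above all Nf2 mice.

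The 3 transporters, Slc6a20a, Slc22a6 and Slc47a1, had the same lowest mouse in each genotype and the same highest DKO mouse. The highest Nf2 mouse was 1048 for Slc6a20a and Slc22a6 and 918 for Slc47a1. Slc6a20a (chromosome 9, 123634770 to 123678885, minus strand) carries proline and related imino acids. The Nf2 mice stood at 1.06 CPM (649), 3.85 (918), 3.98 (702), 4.07 (884), 4.75 (1049) and 6.82 (1048), and the DKO mice at 2.70 CPM (887), 7.13 (914), 11.9 (917), 13.3 (915), 14.6 (885) and 39.1 (886). Mouse 649 was again lowest of all and mouse 886 highest, and only mouse 887 lay inside the Nf2 range. The log2 fold change was 1.83 ± 0.52 (SE). Exons of Slc6a20a overlap 3 genes of the opposite strand with at most 40 reads in a library, and without a stated strand setting reads from the shared stretches cannot be told apart.

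Slc22a6 (chromosome 19, 8618039 to 8628299, plus strand), an exchanger of organic anions, had few reads. It stood at 0.298 CPM in Nf2 mouse 649, which is 7 reads, 0.598 to 1.14 CPM in the other 5 Nf2 mice, 0.426 CPM in DKO mouse 887 and 1.45 to 5.37 CPM in the other 5 DKO mice. Its log2 fold change was 1.82 ± 0.46 (SE). Slc47a1 (chromosome 11, 61343401 to 61378345, minus strand), which exports organic cations, had 1.92 CPM in Nf2 mouse 649 and 9.34 to 15.0 CPM in the other 5, and 4.45 CPM in DKO mouse 887 and 16.9 to 38.8 CPM in the other 5. Its log2 fold change of 1.01 ± 0.45 (SE) was the smallest of the transporters.

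Gjb2 and Gjb6 encode connexin 26 and connexin 30, subunits of gap junction channels that couple neighbouring cells, and lie next to each other on chromosome 14 (57098600 to 57104702 and 57123303 to 57133611, both minus strand). For Gjb2 the Nf2 mice stood at 1.02 CPM (649), 2.38 (1048), 2.47 (918), 2.51 (702), 2.66 (884) and 2.84 (1049). The DKO mice stood at 1.85 CPM (887), 3.85 (914), 4.92 (917), 6.34 (886), 6.94 (915) and 7.06 (885). Apart from mouse 649 the Nf2 mice were closely spaced, and apart from mouse 887 the DKO mice were all above them. Gjb6 ranged from 1.45 to 6.06 CPM in Nf2 and from 3.55 to 21.4 CPM in DKO mice. The log2 fold changes were 1.13 ± 0.30 for Gjb2 and 1.37 ± 0.38 for Gjb6 (SE).

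Igf2 (chromosome 7, 142650766 to 142666816, minus strand), a growth factor that acts through the insulin and insulin-like growth factor receptors, stood at 10.2 CPM (649), 35.7 (884), 38.6 (702), 39.2 (918), 42.5 (1048) and 54.7 (1049) in Nf2 DRG. In DKO DRG it stood at 28.8 CPM (887), 63.9 (914), 76.0 (917), 95.2 (915), 113 (885) and 217 (886), so that mouse 887 alone fell below the highest Nf2 mouse. The log2 fold change was 1.41 ± 0.42 (SE). In the annotation Igf2 shares exons with a same-strand readthrough gene, Gm49394, and the handling of reads that fall on both is not given in the sources used here, so its count is less certain than the others.

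Foxc1 (chromosome 13, 31806633 to 31812476, plus strand), a forkhead transcription factor required for the development of the meninges, differed least. It had 3.79 CPM in Nf2 mouse 649 and 7.80 to 10.0 CPM in the other 5 Nf2 mice, while the DKO mice stood at 6.25 CPM (887), 8.39 (914), 9.20 (917), 11.1 (915), 14.5 (885) and 22.2 (886). The genotypes overlapped broadly, and the log2 fold change, 0.50 ± 0.29 (SE), was the smallest of the 10. Tbx18 (chromosome 9, 87702800 to 87731260, minus strand), a T-box transcription factor also used by cells of vessel walls, had 1.19 to 2.43 CPM in Nf2 and 2.25 to 4.21 CPM in DKO mice. Unlike the genes above, Tbx18 was highest of all in DKO mouse 887, and its log2 fold change was 0.66 ± 0.21 (SE).

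Tmem72 (chromosome 6, 116679063 to 116716913, minus strand), which encodes a predicted membrane protein, stood at 11.0 CPM (1048), 11.4 (649), 12.7 (1049), 15.0 (918), 15.6 (702) and 17.2 (884) in Nf2 DRG. In DKO DRG it stood at 27.2 CPM (914), 27.5 (915), 28.5 (917), 33.3 (887), 42.0 (885) and 45.3 (886). It was the only gene of the 10 whose genotypes did not overlap, and 0.902% of all tested genes were separated in this direction (1.95% in either direction). Its spread was also the narrowest relative to its difference, with 13.8 ± 2.49 CPM in Nf2 and 34.0 ± 7.91 CPM in DKO mice (SD, n = 6) and a log2 fold change of 1.28 ± 0.16 (SE).

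To set the 10 genes beside each other, levels were divided by exon length, as TPM, where the length-scaled values of each library add up to the same sum. On that scale Ptgds led with 289 ± 130 TPM in Nf2 and 1148 ± 996 TPM in DKO mice (SD, n = 6), followed by Igf2 with 24.1 ± 9.68 and 66.4 ± 44.1 TPM and Slc47a1 with 12.3 ± 5.58 and 25.9 ± 13.7 TPM. Gjb6, Foxc1, Slc6a20a, Gjb2 and Tmem72 followed in Nf2 mice with means of 6.08, 5.32, 3.74, 3.61 and 3.01 TPM, neighbours that lay within 1 SD of each other. Tbx18 (1.55 TPM) and Slc22a6 (0.686 TPM) were lowest. In DKO mice the mean of Slc6a20a was 13.9 TPM, above Foxc1 at 7.81 TPM, and Slc22a6 was at 2.57 TPM, near Tbx18 at 2.495 TPM, with overlapping spreads in both cases.

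The spread within a genotype had the same mice at its ends in most genes. Nf2 mouse 649 was the lowest Nf2 mouse in 9 of the 10 genes, the exception being Tmem72, where mouse 1048 was lower. DKO mouse 887 was the lowest DKO mouse in 8 genes and mouse 886 the highest in 8. In the 8 genes where mouse 887 was lowest, all but Tmem72 and Tbx18, it lay above mouse 649 and below the other 5 Nf2 mice. Removal of mice 649, 886 and 887, a choice made after the values were seen, moved the median log2 fold change of the 10 genes to 1.11. Without mouse 887 the genotypes did not overlap in 8 of the 10 genes, where 2.95% of all tested genes were so separated, and without mice 649 and 887 in 8, where 3.35% were. Nothing is read from these counts, since the genes were listed by this contrast. Over all genes, edgeR with a threshold of 0.05 called 0.94% of the 18295 between genotypes with all 12 mice. It called 1.17% without mouse 887, 1.71% without mice 649 and 887, and 1.68% without mouse 886 as well (0.839% higher in DKO).

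**Figure D2:**
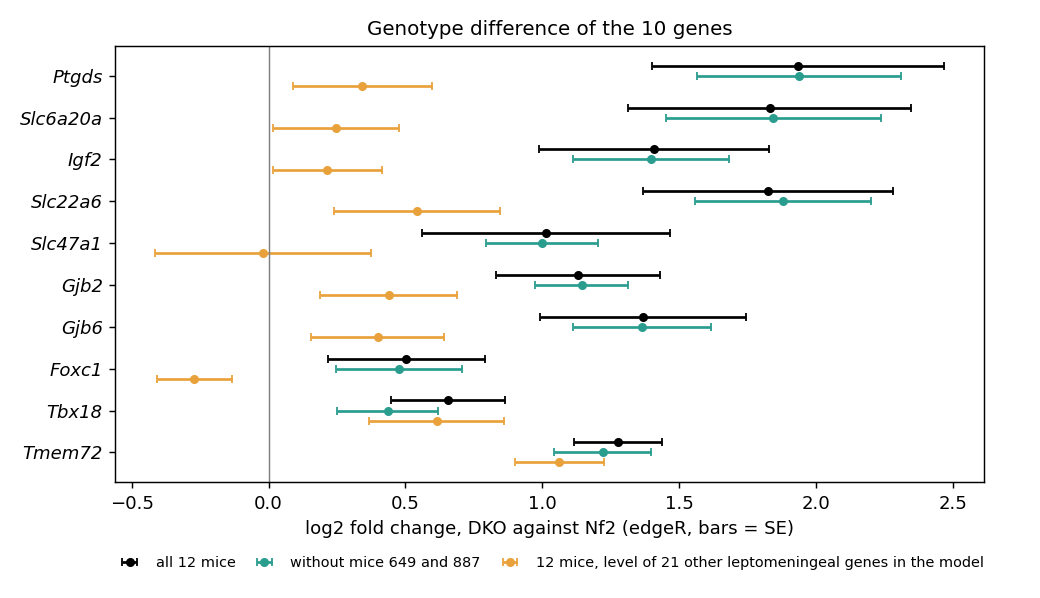
Log2 fold change of DKO against Nf2 for each of the 10 genes, with bars of 1 SE, from edgeR with all 12 mice (black), without mice 649 and 887 (green), and with the mean level of 21 other leptomeningeal genes as a term of the model (orange). Without the 2 mice most values change little (Tbx18 goes from 0.66 to 0.43) and the bars of most genes shorten, while with the leptomeningeal term the median goes from 1.32 to 0.37 and Tmem72 remains at 1.06.

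To remove the genotype difference from the relation between genes, the mean of each genotype was subtracted from log2(CPM + 4), the scale of the study, and each pair of genes was correlated over the 12 mice. P-values came from 100000 permutations within genotype and were adjusted over the 45 pairs. Co-variation was among the properties the set was assembled to compare, so these p-values are not strictly independent of the choice of genes. Of the 45 pairs, 28 passed an adjusted p of 0.05, and these were exactly the pairs among the 8 genes other than Tmem72 and Tbx18. Pearson r within those pairs ranged from 0.79 to 0.97 with a median of 0.89, and Spearman rho, which passed in 16 of them, from 0.48 to 0.95.

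The tightest pair joined 2 transporters, Slc6a20a and Slc22a6, with r of 0.97 (permutation p 0.00011, adjusted 0.00099) and rho of 0.87 (adjusted permutation p 0.01335). Ptgds and Slc6a20a had r of 0.95 (permutation p 5e-05, adjusted 0.00067) and rho of 0.90 (adjusted p 0.00693). Ptgds and Igf2 had r of 0.96 (adjusted permutation p 0.00305), and Igf2 and Foxc1 had r of 0.96 (adjusted permutation p 0.00022). The connexins Gjb2 and Gjb6 had r of 0.83 (adjusted permutation p 0.00949) and rho of 0.62, which did not pass. Within the 6 DKO mice, Ptgds, Slc6a20a, Igf2, Slc22a6 and Foxc1 put the mice in 1 identical order, from 887 through 914, 917, 915 and 885 to 886, so that rho was 1 in all 10 pairs of these 5 genes (exact permutation p 0.00278, the smallest that rho over 6 mice allows).

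The relation was weaker without the mice at the ends. Leaving out the 2 mice farthest from the median of the first gene of each pair gave r of 0.32 to 0.98 with a median of 0.79 in the 28 pairs, and Ptgds and Slc6a20a then had 0.98. Leaving out mice 649, 886 and 887, chosen after the values were seen, gave 0.079 to 0.90 with a median of 0.60, with 0.90 for both Slc6a20a pairs named above, 0.51 for Ptgds and Igf2, and 0.51 for Gjb2 and Gjb6. Within the 6 DKO mice r was 0.75 to 0.997 in the 28 pairs, and 17 passed an adjusted exact permutation p of 0.05. Within the 6 Nf2 mice r was 0.61 to 0.98 but none passed the adjusted exact permutation test, with 12 at an unadjusted p under 0.05. Spearman rho in these mice ran from 0.03 for Slc22a6 and Gjb2 to 0.94 for Ptgds and Slc22a6. For Ptgds and Slc6a20a it was 0.66 (exact permutation p 0.175).

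**Figure D3:**
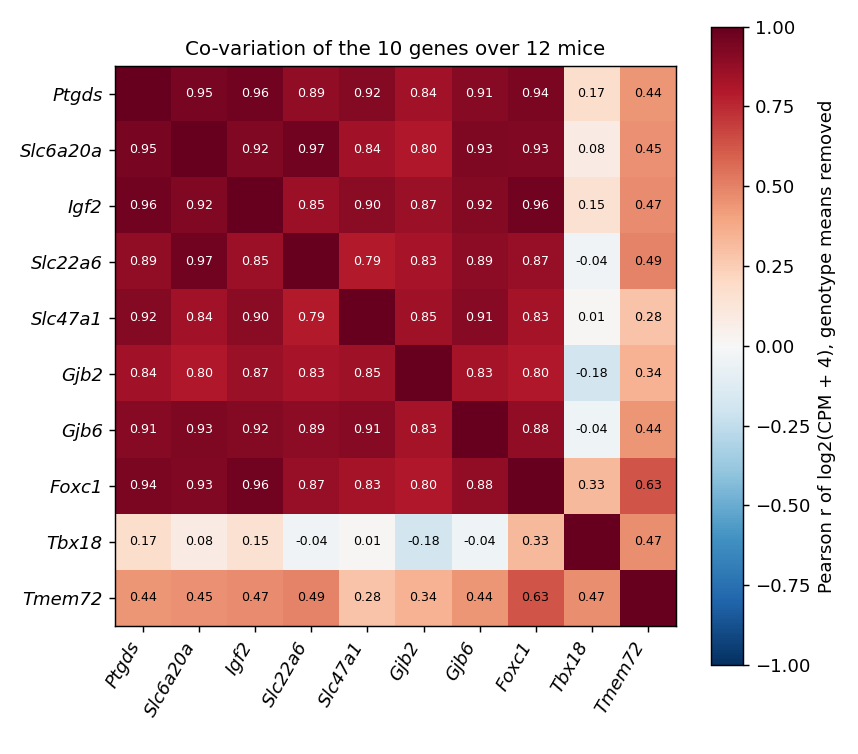
Pearson r between each pair of the 10 genes over 12 mice, on log2(CPM + 4) with the genotype means removed; red is positive and blue negative, and the number in each cell is r. The 8 genes from Ptgds to Foxc1 form a block with r of 0.79 to 0.97, while the rows of Tbx18 and Tmem72 are paler.

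Tmem72 and Tbx18 stood apart from this block. Tmem72 had r of 0.28 to 0.63 with the 8 other genes, and none of these pairs passed, the smallest adjusted permutation p being 0.0783 for Foxc1 (unadjusted 0.0505). Tbx18 had r of -0.18 to 0.33 with them, none of which passed (smallest unadjusted permutation p 0.345). Within Nf2 mice r of Tbx18 with the 8 genes was 0.62 to 0.89, and within DKO mice, where mouse 887 was highest for Tbx18, it was -0.57 to 0.05. For the same pairs rho was 0.09 to 0.94 in Nf2 and -0.37 to -0.03 in DKO mice. Tbx18 and Tmem72 had r of 0.47 with each other (permutation p 0.161, adjusted 0.241). A difference between these correlations and those of the block was not tested.

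The proportion of Slc6a20a to Ptgds was nearly constant. For each 100 CPM of Ptgds, a mouse had 2.52 to 3.83 CPM of Slc6a20a, a 1.52-fold range and a coefficient of variation of 11.8%, although Ptgds itself spanned 45.9-fold over the 12 mice. This proportion was 3.29 ± 0.42 in Nf2 and 3.00 ± 0.29 in DKO mice (SD, n = 6). The proportion of Igf2 to Ptgds spanned 2.66-fold and that of Slc22a6 2.55-fold. For Foxc1 it ran from 1.70 CPM per 100 CPM of Ptgds in mouse 886 to 13.3 in mouse 649, a 7.84-fold range, and for Tmem72 from 3.47 in mouse 886 to 39.9 in mouse 649. Foxc1 spanned 5.85-fold over the mice, and it shared the order of Ptgds within DKO but not within Nf2 mice (rho 0.37, exact permutation p 0.497).

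**Figure D4:**
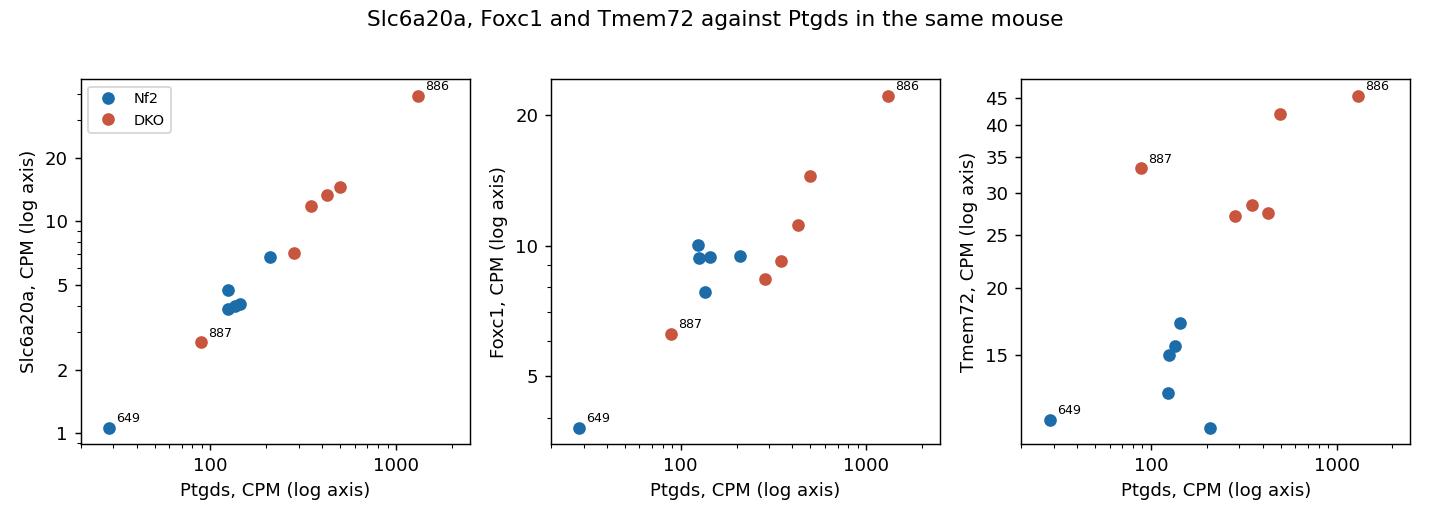
Slc6a20a (left), Foxc1 (middle) and Tmem72 (right) against Ptgds in the same mouse, all in CPM on log axes, with 1 point per mouse (Nf2 in blue, DKO in red) and mice 649, 886 and 887 named. Slc6a20a runs along 1 line through both genotypes, Foxc1 along a flatter one, and Tmem72 falls into 2 levels, 11.0 to 17.2 CPM in Nf2 and 27.2 to 45.3 CPM in DKO mice.

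Other genes of the leptomeninges were examined through a list of 21 genes outside the 10, written with earlier results of these data known. In DKO 17 of the 21 were higher and 4 lower, with a median log2 fold change of 0.83, and 14 lay above 0.5, where 5.07% of all tested genes did. None passed the edgeR adjusted p of 0.05, 15 had an unadjusted p under 0.05 as did 14.9% of all genes, and DESeq2 called 7 of them (Igfbp2, Dpp4, Slc13a3, Slc6a13, Aldh1a2, Bmp6 and Slc22a8), where it called 4.54% of all genes. Slc22a8, an organic anion transporter related to Slc22a6, had 2.44 ± 1.25 CPM in Nf2 and 7.34 ± 4.45 CPM in DKO mice (SD, n = 6), a log2 fold change of 1.57 ± 0.46 with an edgeR adjusted p of 0.126. Aldh1a2, which makes retinoic acid, had 6.76 ± 2.77 and 14.1 ± 6.70 CPM, a log2 fold change of 1.04 ± 0.32 with an edgeR adjusted p of 0.135. The genes of the list with the highest CPM differed little, with log2 fold changes of -0.01 for Cdh1 (168 CPM over all mice), -0.02 for Wnt6 (42.8 CPM) and -0.31 for Bmp7 (37.4 CPM) and edgeR adjusted p-values of 0.968, 0.949 and 0.331. Because these genes dominate a sum of CPM, the summed level of the 21 genes was 339 to 369 CPM in Nf2 and 321 to 608 CPM in DKO mice.

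The mean log2(CPM + 4) of these 21 genes moved with the block over the mice. It was 3.27 in Nf2 mouse 649 and 3.59 to 3.68 in the other Nf2 mice, and the DKO mice stood at 3.44 (887), 3.72 (914), 3.88 (917), 4.01 (915), 4.13 (885) and 4.59 (886), the same order as for Ptgds. With genotype means removed, its r over the 12 mice was 0.98 with Slc6a20a (rho 0.92), 0.97 with Foxc1 (rho 0.98), 0.96 with Slc22a6 (rho 0.79) and 0.83 to 0.94 with the other 5 genes of the block, and all 8 passed a permutation p adjusted over 170 pairs of gene and marker list. The 21 genes were listed with earlier results of these data known, and the 8 block genes co-vary. These are therefore not 8 independent results, and the p-values are not strictly independent of the choice of genes. By rho 3 of the 8 passed (Foxc1, Slc6a20a and Igf2), and 7 did before adjustment. Without mouse 649 r was 0.81 to 0.98 and 3 of the 8 passed, and without mouse 914 it was 0.82 to 0.98 and 5 passed. Without mouse 887 r fell to 0.72 to 0.97, and 6 of the 8 passed. For Tmem72 r was 0.59 (adjusted permutation p 0.221) and for Tbx18 0.13 (0.856). Tmem72 and Tbx18, which did not pass, are referred to by name rather than by cell type.

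With this leptomeningeal level as a term of the edgeR model, added after the data had been seen, the median log2 fold change of the 10 genes was 0.37. Ptgds had 0.34 ± 0.25 (SE), Slc6a20a 0.25 ± 0.23, Igf2 0.21 ± 0.20, Slc47a1 -0.02 ± 0.39 and Foxc1 -0.27 ± 0.14. Tmem72 had 1.06 ± 0.16 and Tbx18 0.61 ± 0.25, and in this model edgeR called 0.328% of all genes. The level in the model was itself measured in the same libraries and was 3.58 ± 0.15 in Nf2 and 3.96 ± 0.39 in DKO mice (SD, n = 6), so genotype and level were partly confounded.

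Markers of neighbouring cell types were set beside the block in 16 further lists, whose part in its levels was not tested. The list of 8 perineurial genes correlated with 7 of the 8 block genes past the adjusted threshold (r of 0.64 to 0.92 over all 8), with none past it by rho (7 unadjusted) and none without mouse 649 (6 unadjusted, r of 0.57 to 0.91). Without mouse 887 the perineurial list passed with 2 of the 8 (r of 0.48 to 0.90). All 8 perineurial genes were higher in DKO, with a median log2 fold change of 0.53, but only Tenm2, a cell adhesion receptor, passed the edgeR test (17.3 ± 1.39 against 24.5 ± 1.15 CPM, SD, n = 6, log2 fold change 0.48 ± 0.07, adjusted p 0.00838). The other perineurial genes of highest CPM, Itgb4 and Slc2a1, had log2 fold changes of 0.05 and 0.21 with edgeR adjusted p-values of 0.850 and 0.577, and Cldn1 had 0.59 with 0.308. The choroid plexus list also correlated with all 8 block genes (r of 0.80 to 0.91), with none past the threshold by rho (8 unadjusted) and 1 without mouse 649 (r of 0.80 to 0.93). Without mouse 887 the choroid plexus list passed with 3 of the 8 (r of 0.67 to 0.89). Its defining markers were at or near 0, with Ttr, the carrier of thyroxine, at 0.170 to 0.663 CPM and Otx2 at 0 to 0.0432 CPM in the 12 mice. Of its 8 tested genes, 4 had a higher fitted level in DKO, Kcnj13 (log2 fold change 1.48), F5 (1.46), Clic6 (0.69) and Kl (0.54), and 4 a lower one, Slc4a5 (-0.75), Ttr (-0.61), Sostdc1 (-0.58) and Folr1 (-0.54). None passed the edgeR test, with 6 at an unadjusted p under 0.05, and DESeq2 called Kcnj13 higher and Sostdc1 lower. Sostdc1 had the highest CPM of the list, at 362 ± 41.8 in Nf2 and 246 ± 57.6 in DKO mice (SD, n = 6).

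Nerve fibroblast genes, led by Apod, Dcn and Lum, correlated past the threshold with 2 of the 8 block genes. Their r was 0.69 to 0.92 over all 8, and all 8 had an unadjusted permutation p under 0.05. Sensory neuron genes passed with Slc47a1 alone, negatively (r of -0.81). Over all 8 block genes r with sensory neuron genes was -0.81 to -0.49, and all 8 had an unadjusted permutation p under 0.05. Neither list passed with any of them by rho (2 and 1 unadjusted) or without mouse 649 (2 and 1 unadjusted). Without mouse 887 r was 0.32 to 0.79 for nerve fibroblasts (1 passed) and -0.79 to -0.28 for sensory neurons (0 passed). No correlation passed for pericytes and vascular smooth muscle, endothelium, ependyma, oligodendrocytes, astrocytes, spinal cord neurons, skeletal muscle, erythroid cells, adipocytes, Schwann cells, satellite glia or macrophages. Endothelial genes had r of 0.39 to 0.74 with the 8 block genes, 6 of them at an unadjusted permutation p under 0.05. Among astrocyte genes 5 of 6 had a higher fitted level in DKO (median log2 fold change 0.61). So did 4 of 5 tested oligodendrocyte genes (0.55) and 3 of 4 tested genes of spinal cord neurons (0.73). The list levels overlapped, with a mean log2(CPM + 4) of 4.12 ± 0.32 in Nf2 and 4.46 ± 0.40 in DKO mice for astrocytes (SD, n = 6). For oligodendrocytes it was 3.70 ± 0.31 and 3.89 ± 0.35, and for spinal cord neurons 2.38 ± 0.30 and 2.52 ± 0.36. Summed CPM of spinal cord neuron genes ran from 3.48 to 24.6 in Nf2 and from 2.43 to 37.9 in DKO mice. None of the genes of these lists passed the edgeR test, with 1 astrocyte gene at an unadjusted p under 0.05. That gene, Gfap, which encodes an intermediate filament, had 41.8 ± 19.3 CPM in Nf2 and 98.7 ± 25.2 CPM in DKO mice (SD, n = 6). Its log2 fold change was 1.22 ± 0.29 with an edgeR adjusted p of 0.0700, and DESeq2 called it. In DKO mice Gfap stood at 60.1 CPM (885), 83.8 (887), 96.7 (886), 104 (914), 115 (917) and 133 (915). In the same order, spinal cord neuron genes summed to 2.43, 3.74, 7.28, 16.2, 37.9 and 18.7 CPM. Which cells the Gfap reads came from was not tested. Over the mice, r with the 8 block genes was 0.18 to 0.62 for astrocytes, -0.02 to 0.37 for oligodendrocytes and -0.01 to 0.40 for spinal cord neurons. The 8 macrophage genes all had a lower fitted level in DKO, with log2 fold changes from -0.71 to -0.007, the latter close to no change. C1qb passed the edgeR threshold (37.0 ± 6.40 against 22.9 ± 2.86 CPM, SD, n = 6, log2 fold change -0.71 ± 0.12, adjusted p 0.0138). Of the 8, 5 had an edgeR unadjusted p under 0.05, and DESeq2 called 3. The r of the macrophage list with the block was -0.25 to 0.07. The erythroid list was lowest in mice 649 and 887, with 36.4 and 59.7 summed CPM against 129 to 763 in the other 10 mice, and its r with the block was 0.44 to 0.82. Without mouse 887 the r of the erythroid list with the block was -0.05 to 0.67. The mitochondrial share was highest in the same 2 mice, and its r with the 8 block genes was -0.82 to -0.62 (adjusted permutation p 0.0553 to 0.105 over the 10 genes, none past the threshold). All 7 skeletal muscle genes had a lower fitted level in DKO, with a median log2 fold change of -2.27. Their summed level was 9.45 to 794 CPM in Nf2 and 14.7 to 243 CPM in DKO mice. By edgeR 0 of them passed, with 6 at an unadjusted p under 0.05, as had 14.9% of all genes, and DESeq2 called 0. Whether RNA quality or the amount of covering tissue or muscle carried along at dissection moved the levels of the block was not tested.

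**Figure D5:**
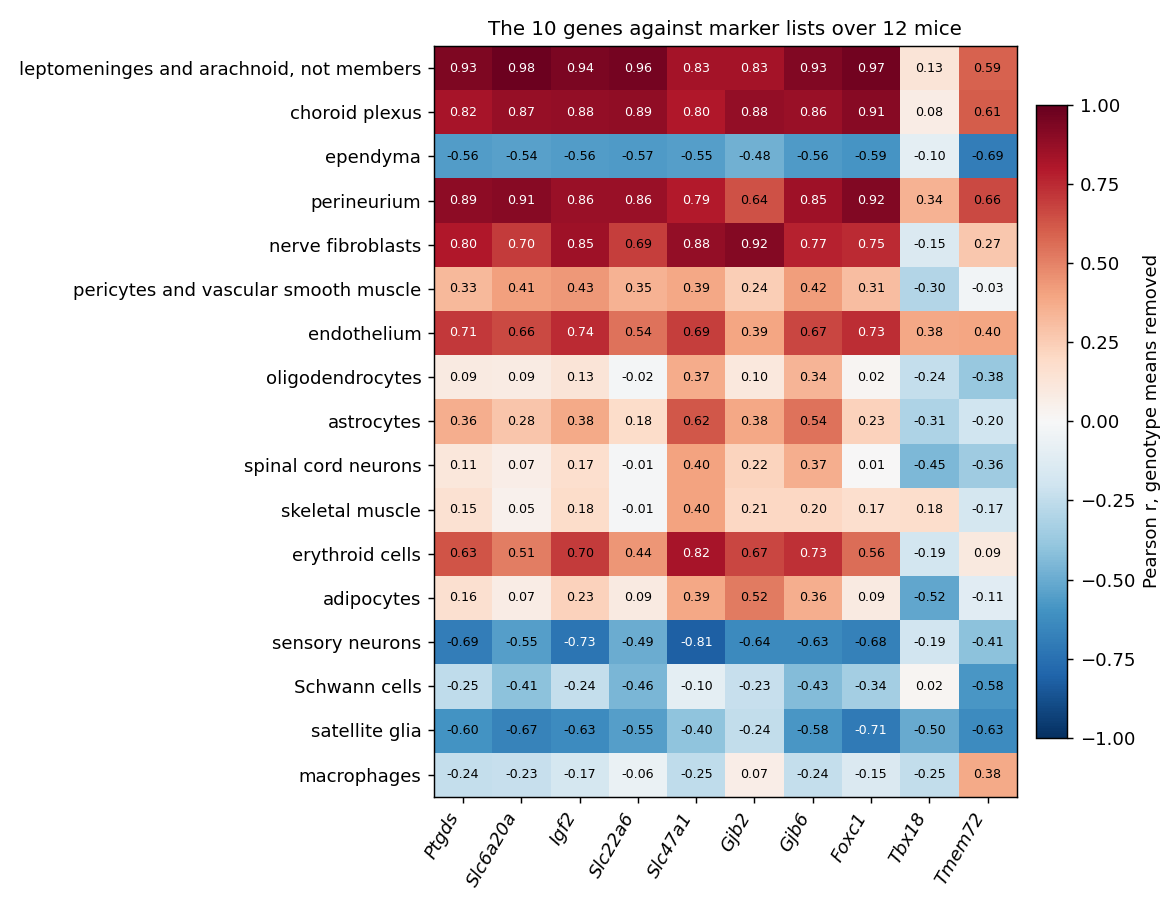
Pearson r over 12 mice, genotype means removed, between each of the 10 genes (columns) and the mean log2(CPM + 4) of each of 17 marker lists (rows); red is positive and blue negative. The 8 genes from Ptgds to Foxc1 reach 0.83 to 0.98 with the other leptomeningeal genes and 0.80 to 0.91 with the choroid plexus list. They reach 0.64 to 0.92 with perineurium, 0.69 to 0.92 with nerve fibroblasts, 0.39 to 0.74 with endothelium and 0.44 to 0.82 with erythroid cells. Negative rows for the same 8 genes are sensory neurons (-0.81 to -0.49), satellite glia (-0.71 to -0.24) and ependyma (-0.59 to -0.48). The rows of spinal cord neurons, skeletal muscle and Schwann cells stay between -0.46 and 0.40 for the same 8 genes.

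For each gene the 3 most similar genes were taken by r over the 12 genotype-centred mice, among 14170 candidates with a mean of at least 1 CPM. These are the highest of many values and are given as a description. Slc6a20a was followed most closely by Ranbp3l (r 0.98), Slc22a8 (0.98) and Vtn (0.98), and Ptgds by Scara3 (0.97), Ranbp3l (0.97) and Fgfr1 (0.96). Igf2 was nearest to Scara3 (0.98), Osr1 (0.97) and Vtn (0.96), Foxc1 to Slc6a13 (0.98), Scara3 (0.98) and Zic2 (0.98), and Slc22a6 to Slc9a2 (0.95), Fgfbp1 (0.95) and Kcnj13 (0.95). Slc47a1 was nearest to Angptl1 (0.97), Slc5a6 and Lysmd3 (0.97 each), Gjb6 to Atp13a5 (0.96), Hif1a (0.96) and Slc22a4 (0.95), and Gjb2 to Ccdc91 (0.94), Acsl3 (0.94) and Aebp1 (0.92). Scara3 was named for 3 of the genes and Ranbp3l and Vtn for 2 each, and no other gene was named more than once. Tmem72 was nearest to Ccdc126 (0.92), Ror1 (0.90) and Zfp759 (0.90), and Tbx18 to Zfp512 (0.86), Mob3b (0.86) and Mrpl50 (0.85).

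Labelled sex was tested because the choice of the 10 genes did not use it. All 10 genes had a lower fitted level in males, with log2 differences from -0.78 for Slc6a20a to -0.12 for Gjb2. None passed the edgeR test (smallest adjusted p 0.999892) or DESeq2, and 0.0164% of all genes passed by edgeR. At an unadjusted p under 0.05 only Tbx18 was counted, at -0.45 ± 0.18 (SE, unadjusted p 0.0267), where 2.91% of all genes were so counted, and without mouse 702 none of the 10 passed either. The dependence of the genotype difference on labelled sex passed for none of the 10 (background 0.0109%). Only Tmem72 had an unadjusted p under 0.05, at -0.78 ± 0.23 on the log2 scale with an edgeR unadjusted p of 0.00596 and an adjusted p of 0.920, where 4.78% of all genes had an unadjusted p under 0.05. Tmem72 had 40.2 ± 6.20 CPM in DKO females and 27.7 ± 0.674 CPM in DKO males, and 12.9 ± 2.01 and 14.7 ± 3.01 CPM in Nf2 females and males (SD, n = 3 each). The log2 fold change of Tmem72 was 1.63 ± 0.16 in females alone and 0.87 ± 0.15 in males alone (SE), while the median of the 10 genes was 1.36 in females and 1.41 in males.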

How the data were processed

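Bulk RNA sequencing libraries of DRG, 1 per mouse, were prepared commercially with poly(A) selection. Per the submitters' processing notes, Trimmomatic 0.36, STAR 2.5.2b, featureCounts of Subread 1.5.2 and GRCm38 were used. The annotation release, the strand setting and the handling of reads with several matches are not given in the sources used here. The authors deposited raw counts per gene without normalization. The study's own scale was log2(CPM + 4).

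The 10 genes, the 17 marker lists (4 to 21 genes) and the tests were chosen with earlier results of these data known. Of 49315 genes, 49056 (99.5%) were found in GENCODE M21, which gave coordinates and exon lengths. Counts were filtered with filterByExpr, which left 18295 genes, given TMM scaling factors and tested with the quasi-likelihood F test of edgeR 4.0.16 in R 4.3.3 on 12 mice without covariates, with Benjamini-Hochberg adjustment at 0.05. CPM was the count scaled to the library total, and the total count of 21129191 to 41250329 per mouse sets the counting precision. Labelled sex was tested in a model that held genotype, and then as an interaction. Correlations used Python 3.11.15 with numpy 2.4.6. Mice are separate animals, so p-values measure the spread between animals. Named were the 10 genes, the genes past the threshold and the 3 of highest level in each list as far as a result turned on them, the 3 genes most like each of the 10 (mean of at least 1 CPM), and Ptk2 and Nf2. Further list genes (Slc22a8, Aldh1a2, Kcnj13, Kl, Slc4a5, Folr1 and Ttr) were named after their values were seen. Alternatives were other scaling factors, DESeq2 1.42.0, no filter, sex as a covariate, subsets of mice, a leptomeningeal covariate and a pseudocount of 1. The procedures were tested on simulated data. A gene of the marker lists is not reported here.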

Additional observations from a re-analysis of the deposited data

Results flagged for a closer look

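A mouse was singled out when its gap to the nearest mouse of its genotype, divided by the range of the 6 mice, exceeded the 95% critical value of Dixon's test. Of 56 groups searched, 10 were singled out, where independent groups would give about 2.8 by chance. The groups share the same mice and many co-vary, so no excess over chance is read from this count.

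Among Nf2 mice, mouse 649 was lowest on the log2(CPM + 4) scale for Ptgds at 5.02 (next 7.00), Igf2 at 3.83 (next 5.31), Slc47a1 at 2.56 (next 3.74), Gjb2 at 2.33 (next 2.67) and Foxc1 at 2.96 (next 3.56). The mean level of the 21 other leptomeningeal genes was also lowest there, at 3.27 (next 3.59). Among DKO mice, mouse 887 was lowest for nerve fibroblast genes at 5.15 (next 5.54) and erythroid genes at 3.52 (next 5.20), and it had the highest mitochondrial share, 5.60% (next 2.52%). DKO mouse 886, the highest for Ptgds, was lowest for satellite glia genes at 7.18 (next 7.54). For the 10 genes themselves, the low values of mouse 887 did not exceed this limit.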

How the results depend on the processing

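No paired analysis was possible because each mouse number occurs once and the genotypes share none. All 10 genes stayed higher in DKO under every other scaling factor, DESeq2, no filter, sex as a covariate, each left-out mouse and each subset of mice. With the leptomeningeal level as a covariate, Slc47a1 was -0.021 and Foxc1 -0.27, and the other 8 stayed higher. The subsets of 2 or 3 mice, the single sexes and the covariate were added after the data had been seen, and the cause of the changes below was not tested.

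The 10 genes were listed by the genotype contrast, so their counts describe its dependence on the mice and are no support for it. Of them, edgeR called 1 between genotypes (Tmem72), and DESeq2 called 6. Without mice 649 and 887, and also without mouse 886, 8 were called. With each mouse left out 1 to 6 were called, the 6 without mouse 887. In males alone 0 were called, with 8 at an unadjusted p under 0.05, where 9.7% of all genes had one. Of the 21 other leptomeningeal genes, edgeR called 0 (15 unadjusted), DESeq2 7, without mice 649 and 887 2, without mouse 886 as well 3, with the covariate 1 (Bmp7), and with each mouse left out 0 to 1. Over all genes, 172 were called between genotypes by edgeR, 831 by DESeq2, 314 without mice 649 and 887, 312 without mouse 886 as well, 60 with the covariate, 57 in females alone, 2 in males alone, and 81 to 217 with each mouse left out. For labelled sex 3 genes were called, 5 by DESeq2 and 0 to 10 with each mouse left out, and for the interaction 2, or 2 to 6.

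Co-variation passed in 28 pairs of the 10 genes and in 19 to 30 with each mouse left out. With marker lists it passed in 26 of 170 pairs and in 4 to 41, with 4 without mouse 649, 11 without mouse 914, 16 without mouse 886 and 41 without mouse 1048. Slc22a6, with 7 reads in mouse 649, was limited most by depth.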
